A study of Mus musculus with 12 samples.

Results

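The genes described here are 10 mouse genes of the feedback on the RAS to ERK signalling pathway and of its transcriptional output, chosen by symbol. They are the dual-specificity phosphatase genes Dusp1, Dusp2, Dusp4, Dusp5, Dusp6 and Dusp10, the pathway inhibitor genes Spry1 and Spred1, and the ETS transcription factor genes Etv4 and Etv5. They are 10 of the 51826 genes in the deposited counts. Of the 10 members, 9 were among the 10477 genes with enough reads to be tested, and Spry1 was not.

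The data are 12 libraries of 3′ mRNA sequencing from a murine lymphoma of B cells, made for a study of the phosphorylation of ribosomal protein RPL12 (uL11) and translation in mitosis. There were 6 groups of 2 libraries: cells with wild-type (WT) RPL12, with the serine-to-alanine form S38A or with the serine-to-aspartate form S38D, and each line either asynchronous or mitotic. The parent line 19PP arose, according to the labels, in a Rag2-/-γC-/- mouse that had received bone marrow carrying Cγ1-Cre and a Myc/P110* transgene, so every group shares the Myc and P110* background. A reporter-negative subline, 19DN, was obtained after Flp deletion of GFP and human CD2. Mitotic cells were obtained with 100 ng/mL nocodazole, a microtubule poison, for 8 h, followed by washing and 10 min in fresh medium. The protocol text is the same for all samples and does not say whether asynchronous cultures were washed in the same way. Mitosis, nocodazole and the wash therefore cannot be told apart here. All cells were harvested in 100 µg/mL cycloheximide, which stops translation elongation, and RNA came from cleared polysome lysates. Counts of 3′ reads do not show the RPL12 mutation, so they do not check the line labels. Nothing in the labels says that the 2 libraries of a group came from separate cultures, so p-values measure only the spread between libraries, which may be technical. In bulk RNA, fewer cells of a kind and less RNA per cell cannot be told apart.

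ERK is the last kinase of the cascade that runs from RAS through RAF and MEK, and in B cells it is activated by the B cell receptor and by growth signals. Active ERK induces the genes of its own inhibitors, so their mRNA levels are widely used as a readout of pathway activity. DUSP1, DUSP2, DUSP4 and DUSP5 are inducible nuclear phosphatases that remove the activating phosphates from MAP kinases, with DUSP5 acting on ERK alone. DUSP6 does the same to ERK in the cytoplasm, and DUSP10 acts mainly on the stress kinases p38 and JNK. SPRY1 and SPRED1 act upstream, where they restrain RAS and RAF activation, and ETV4 and ETV5 are ETS factors of the PEA3 family whose expression follows FGF and ERK signalling in many tissues.

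A library held between 3432875 and 6587997 gene reads (median 5548100). B cell markers were present in each library, with a summed level of 1547 to 3619.7 CPM (read counts scaled to library depth with TMM factors) over 8 genes, none of them at 0. T and NK cell markers summed to 1.97 to 7.42 CPM, with 6 of 8 at 0 and nearly all reads from Klrb1c. Myeloid markers summed to 3.12 to 7.21 CPM, with 4 of 8 at 0 in all libraries, and stromal, epithelial and erythroid markers to 1.98 to 6.73 CPM, with 4 of 9 at 0. The 2 libraries of a group stood far apart in 2 cases. Between the S38D asynchronous libraries 45.3% of genes differed by more than counting error, and between the WT mitotic libraries 27.7%, against 13.6% to 21.2% in the other 4 groups. The calls that use these libraries are also given without replicate 1 of both groups, termed the joint omission below. That omission leaves 1 library in each of the 2 groups, so their spread is taken from the other groups. Which library of a pair is the unusual one cannot be told from 2 libraries. Likewise, each omission of a single library leaves 1 library in its group.

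The promoter sequences of 4 phosphatase genes are shown first because these genes gave the contrasting patterns below: Dusp1 was higher in mitotic cells, Dusp2 differed between the lines, and Dusp5 and Dusp6 passed no test in the fit of all libraries. Each is the 250 bases before the RefSeq transcription start on GRCm38.p6, written 5′ to 3′ on the gene's strand. For Dusp1 and Dusp5 this start lies downstream of the start of the GENCODE M21 transcript whose coordinates are given below. The last bases of these windows thus lie inside that transcript, and the distances hold for the RefSeq start only. Capitals mark the motif matches that were searched on both strands: the cAMP response element TGACGTCA and its first 5 bases TGACG, the AP-1 site TGANTCA, the ETS site CCGGAAG, the E-box CACGTG and the CArG box, the site of serum response factor. The windows are chr17:26508473-26508722 on the minus strand for Dusp1, and chr19:53528895-53529144, chr2:127335909-127336158 and chr10:99262981-99263230 on the plus strand for Dusp5, Dusp2 and Dusp6.
Dusp1: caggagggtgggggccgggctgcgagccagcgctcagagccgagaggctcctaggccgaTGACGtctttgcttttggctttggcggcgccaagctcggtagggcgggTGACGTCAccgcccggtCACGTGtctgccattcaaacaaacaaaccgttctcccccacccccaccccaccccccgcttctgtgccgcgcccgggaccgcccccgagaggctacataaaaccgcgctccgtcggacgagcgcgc
Dusp5: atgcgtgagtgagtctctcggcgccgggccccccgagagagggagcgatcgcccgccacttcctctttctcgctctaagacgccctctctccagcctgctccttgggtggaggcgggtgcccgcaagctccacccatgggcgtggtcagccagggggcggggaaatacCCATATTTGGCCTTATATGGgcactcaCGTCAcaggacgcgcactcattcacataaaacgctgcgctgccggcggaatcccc
Dusp2: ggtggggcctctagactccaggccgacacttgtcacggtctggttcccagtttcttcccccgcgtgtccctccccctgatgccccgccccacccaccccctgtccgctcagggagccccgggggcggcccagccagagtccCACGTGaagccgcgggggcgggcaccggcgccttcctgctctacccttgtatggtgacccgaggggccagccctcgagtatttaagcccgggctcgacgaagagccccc
Dusp6: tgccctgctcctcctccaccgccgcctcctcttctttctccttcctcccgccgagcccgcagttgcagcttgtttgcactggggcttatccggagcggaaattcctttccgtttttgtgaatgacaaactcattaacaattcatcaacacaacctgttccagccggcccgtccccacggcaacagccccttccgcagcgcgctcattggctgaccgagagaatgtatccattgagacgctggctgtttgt
The Dusp1 window held TGACGTCA at 143 to 136 bases before the start, another TGACG at 191 to 187 bases and an E-box at 126 to 121 bases. In the Dusp5 window 2 CArG boxes lay side by side at 82 to 73 and 72 to 63 bases before the start, with TGACG on the opposite strand at 55 to 51 bases. An E-box at 109 to 104 bases was the one match in the Dusp2 window, and the Dusp6 window had none. Over 32851 RefSeq promoter windows of this length, TGACGTCA was found in 1.55%, TGACG in 17.8%, a CArG box in 1.47%, an E-box in 6.02%, the ETS site in 6.91% and the AP-1 site in 6.75%. RefSeq windows were at hand for 8 of the 10 members, and no window of Dusp10, Spry1, Spred1 or Etv5 held any of these motifs. The ETS and AP-1 sites were in no member's window. Dusp4 and Etv4 had no entry. These matches are descriptions of the letters and were not tested for binding.

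The 3′ untranslated region of Dusp1 also held 2 copies of the AU-rich nonamer TTATTTATT, a sequence class known for rapid mRNA decay. They are shown in capitals with the bases on either side, from GRCm38 and the GENCODE M21 transcript model.
Dusp1 chr17:26506161-26506185, minus strand: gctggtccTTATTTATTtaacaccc
Dusp1 chr17:26505872-26505896, minus strand: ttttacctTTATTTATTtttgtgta
No other member held the nonamer in the 3′ untranslated region of its principal transcript, and 7.35% of the 9704 tested genes with such a model did. The shorter element ATTTA was present at least 3 times in 5 of the 10 members, against 35.4% of the tested genes. Its count ran from 0 in Etv4 to 12 in Spred1, whose 3′ untranslated region of 4330 bases is the longest of the members, while the median gene had 1 copy in 1016 bases.

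The first question was how these genes differed between mitotic and asynchronous cells. Dusp1 and Dusp4 were higher in mitotic cells of all 3 lines, about 4.14-fold and 5.99-fold on average. Dusp2, Dusp5, Dusp6, Dusp10, Spred1, Etv4 and Etv5 did not pass the test over the 3 lines. Thus 2 of the 9 tested members were called (adjusted p under 0.05 in edgeR's quasi-likelihood test over all genes), both higher, while 42.1% of all tested genes were called in this comparison, 20.5% higher and 21.6% lower. The median log2 fold change was 0.08 over the 9 members and -0.02 over all tested genes. The share of members called was thus no larger than that of all genes, and Dusp4 passed the filter only through the mitotic libraries.

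**Figure D1:**
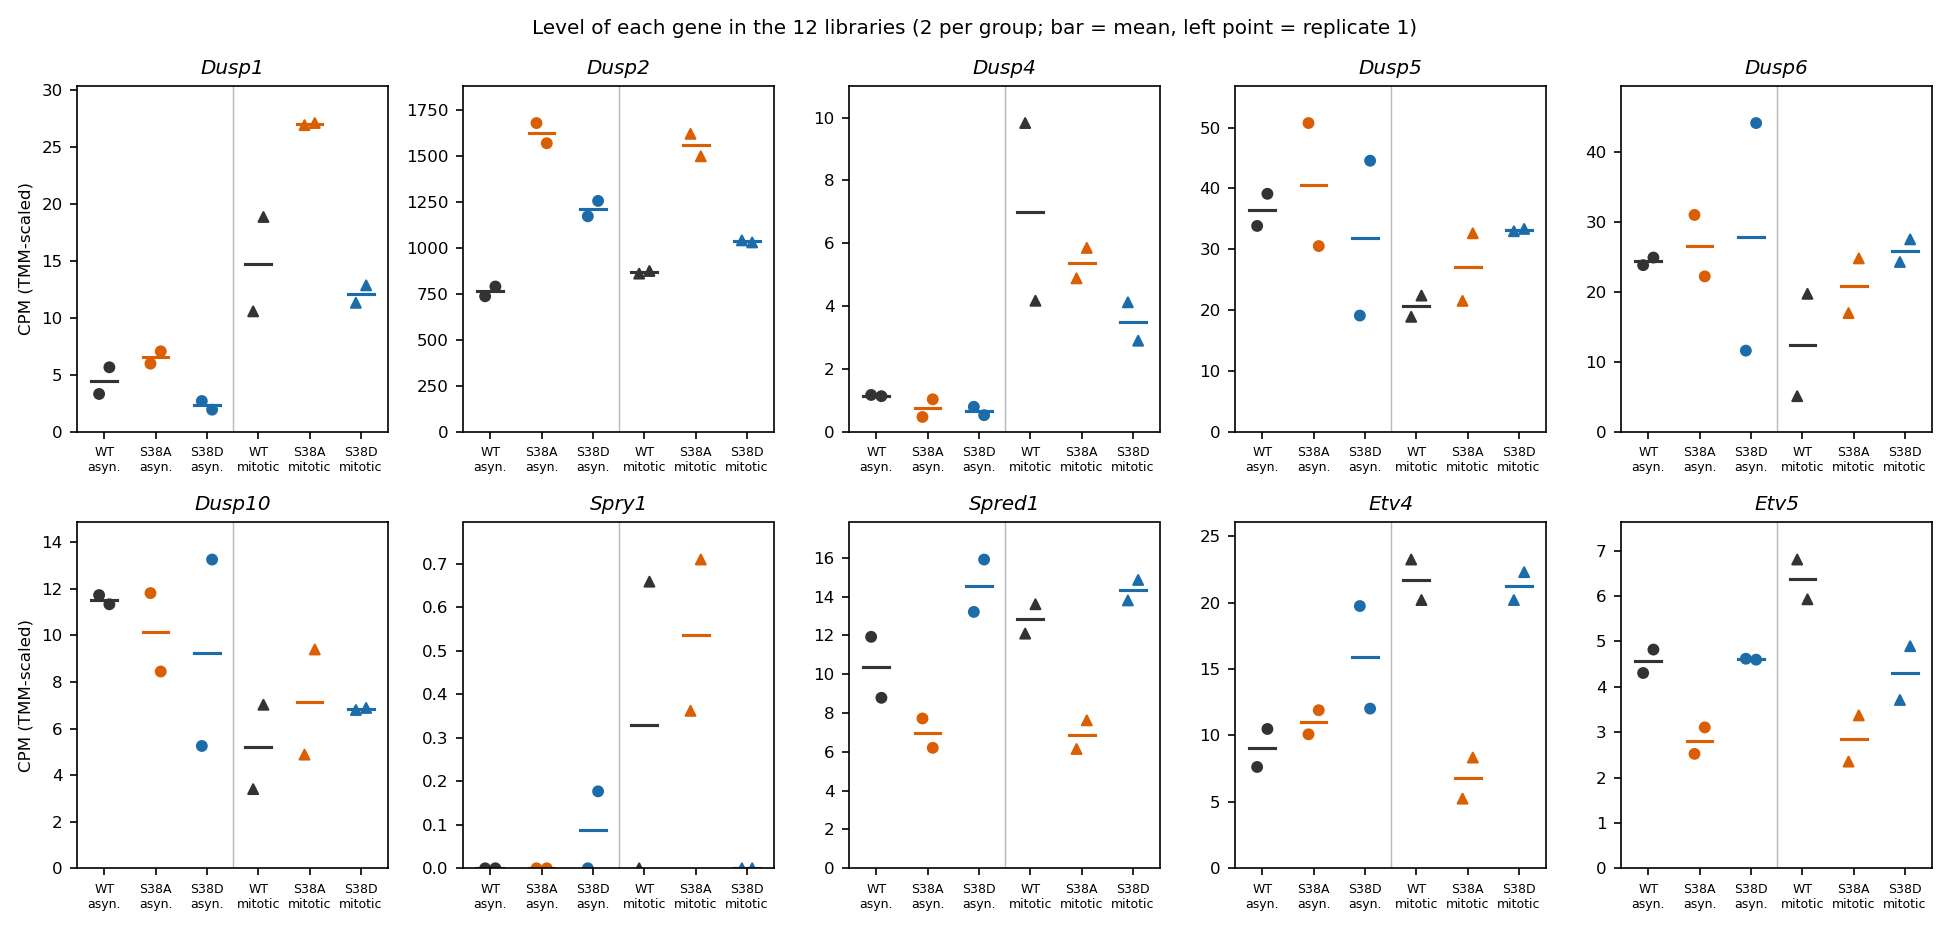
Level of each gene in CPM (TMM-scaled, linear axis from 0, scaled per gene) in the 12 libraries: WT black, S38A orange, S38D blue, circles asynchronous, triangles mitotic, bar = mean of the 2 libraries. In the Dusp1 and Dusp4 panels all 6 mitotic libraries lie above all 6 asynchronous ones. The Dusp2 means have the same order of lines in both states, and the Dusp6 pairs of S38D asynchronous and WT mitotic cells lie far apart.

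Dusp1 (chr17:26505590-26508519, minus strand, 4 exons) encodes the phosphatase that is switched on within minutes by growth factors and stress. In asynchronous cells its level was 3.32 and 5.67 CPM in the WT libraries, 5.99 and 7.07 CPM in S38A and 2.71 and 1.94 CPM in S38D. In mitotic cells it was 10.6 and 18.9 CPM in WT, 26.9 and 27.1 CPM in S38A and 11.3 and 12.9 CPM in S38D. Every mitotic library was above every asynchronous library, a separation seen in 5.79% of tested genes. The log2 fold change was 2.05 (SE 0.179, adjusted p = 2.39e-07) over the lines. The WT value was 1.74 (SE 0.320, adjusted p = 0.0011). S38A cells gave 2.05 (SE 0.273, adjusted p = 0.000125), and S38D cells 2.36 (SE 0.336, adjusted p = 0.000101). Each of these calls held when any 1 of the 12 libraries was left out. With the joint omission the values were 2.15 in WT (adjusted p = 3.58e-06) and 2.63 in S38D (adjusted p = 4.93e-06).

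Dusp4 (chr8:34807297-34819894, plus strand, 4 exons), whose product is another inducible nuclear phosphatase of ERK and JNK, was near the detection limit in asynchronous cells. There it had 3 to 6 reads per library, or 0.47 to 1.17 CPM, and it passed the low-count filter only through the mitotic libraries. Mitotic cells gave 16 to 52 reads: 9.82 and 4.17 CPM in WT, 4.88 and 5.85 CPM in S38A and 4.12 and 2.90 CPM in S38D. Again no mitotic library overlapped an asynchronous one, and WT mitotic replicate 1 was the highest of all. The log2 fold change was 2.58 (SE 0.310, 95% interval 1.92 to 3.24, adjusted p = 6.36e-06) over the lines. It was 2.59 in WT (adjusted p = 0.00173), 2.82 in S38A (adjusted p = 0.00177) and 2.34 in S38D (adjusted p = 0.00696). The S38D call was lost without S38D mitotic replicate 1 (adjusted p = 0.0571). Under the joint omission the WT value was 1.86 (adjusted p = 0.0180) and the S38D value 2.66 (adjusted p = 0.0050). Since a gene that is filtered in through its high group had to differ, this rise describes Dusp4 and supports nothing further.

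Dusp2 (chr2:127336159-127338376, plus strand, 4 exons), the phosphatase PAC-1 of activated lymphocytes, did not differ beyond its spread between the states. Over the lines its log2 fold change was -0.03 (SE 0.057, 95% interval -0.16 to 0.09, adjusted p = 0.656). By line it was 0.18 in WT, -0.06 in S38A and -0.23 in S38D, with adjusted p from 0.0984 to 0.748. With 2787 to 10653 reads per library it had the smallest SE of the members.

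Dusp5, Dusp6 and Dusp10 were lower in mitotic cells on average but did not pass the test, and the libraries of a group disagreed on them. Dusp6 (chr10:99263231-99267488, plus strand, 3 exons), the cytoplasmic ERK phosphatase, measured 23.9 and 24.9 CPM in WT asynchronous cells, 31.0 and 22.2 CPM in S38A and 11.6 and 44.2 CPM in S38D. In mitotic cells it measured 5.10 and 19.7 CPM in WT, 17.0 and 24.8 CPM in S38A and 24.3 and 27.5 CPM in S38D. The 2 libraries thus differed 3.80-fold in S38D asynchronous and 3.87-fold in WT mitotic cells, with replicate 1 the lower in both. Its log2 fold change over the lines was -0.48 (SE 0.430, 95% interval -1.52 to 0.56, adjusted p = 0.418).

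Dusp5 (chr19:53529109-53542431, plus strand, 4 exons), the nuclear ERK phosphatase, lay between 19.1 and 50.7 CPM in asynchronous libraries (median 36.5) and between 18.9 and 33.3 CPM in mitotic ones (median 27.5). Dusp10 (chr1:184034381-184075636, plus strand, 4 exons) lay between 5.25 and 13.3 CPM (median 11.5) and between 3.40 and 9.40 CPM (median 6.84). In both genes the states overlapped and the lowest asynchronous value came from S38D replicate 1. The log2 fold change over the lines was -0.45 (SE 0.242, adjusted p = 0.181) for Dusp5 and -0.70 (SE 0.269, adjusted p = 0.0582) for Dusp10. Replicates of S38D asynchronous cells differed 2.33-fold in CPM for Dusp5 and 2.52-fold for Dusp10.

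With replicate 1 of S38D asynchronous and WT mitotic cells left out, 6 of 9 members were called over the lines, where 46.7% of 10760 tested genes were. On the log2 scale Dusp10 fell by 0.72, Dusp6 fell by 0.47 and Dusp5 fell by 0.57. Etv4 was then higher by 0.44, and Dusp1 and Dusp4 were higher by 2.27 and 2.44. With each single library left out in turn, Dusp10 ran from -0.90 to -0.43 and Dusp6 from -0.90 to -0.07. Dusp5 ran from -0.62 to -0.21. Dusp6 was not called in any of these 12 fits, Dusp5 was called in 1 and Dusp10 in 3. Leaving out only S38D asynchronous replicate 1 gave calls for Dusp10 at -0.89 (adjusted p = 0.00157), Dusp5 at -0.62 (adjusted p = 0.00969) and Etv4 at 0.47 (adjusted p = 0.0114). Etv4 was also called without S38A mitotic replicate 1 (0.44, adjusted p = 0.0476). The Dusp10 call was also made without WT mitotic replicate 2, without S38A mitotic replicate 2, with spike-in scaling (-0.88, adjusted p = 0.0432), without a low-count filter and with the replicate number as a block (-0.72, adjusted p = 0.0260).

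Spry1 (chr3:37639947-37644598, plus strand, 3 exons), one of the Sprouty inhibitors, was hardly detected. It had 10 reads in all: 0 in 8 of the 12 libraries, 1 in an S38D asynchronous library, 3 in a WT mitotic library and 2 and 4 in the S38A mitotic libraries. A count of 0 allows up to 3 reads, or 0.473 to 0.850 CPM depending on the library, and this covers counting error only. The start of its transcript overlaps the predicted gene Gm42922 on the opposite strand, which had 3 reads, and the strand setting of the counting is not given in the sources used here.

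Spred1 (chr2:117121374-117182279, plus strand, 7 exons), the Sprouty-related inhibitor that brings the RAS inhibitor neurofibromin to the membrane, did not differ beyond its spread between the states. Its log2 fold change over the lines was 0.08 (SE 0.136, 95% interval -0.21 to 0.37, adjusted p = 0.656). Etv5 (chr16:22381309-22439719, minus strand, 13 exons) had a log2 fold change of 0.14 (SE 0.188, 95% interval -0.26 to 0.54, adjusted p = 0.570). Etv4, the other PEA3 factor, is the 1 member with a called difference between lines in its mitotic change, for S38A minus WT. That call was lost with 9 of the 12 libraries left out in turn.

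**Figure D2:**
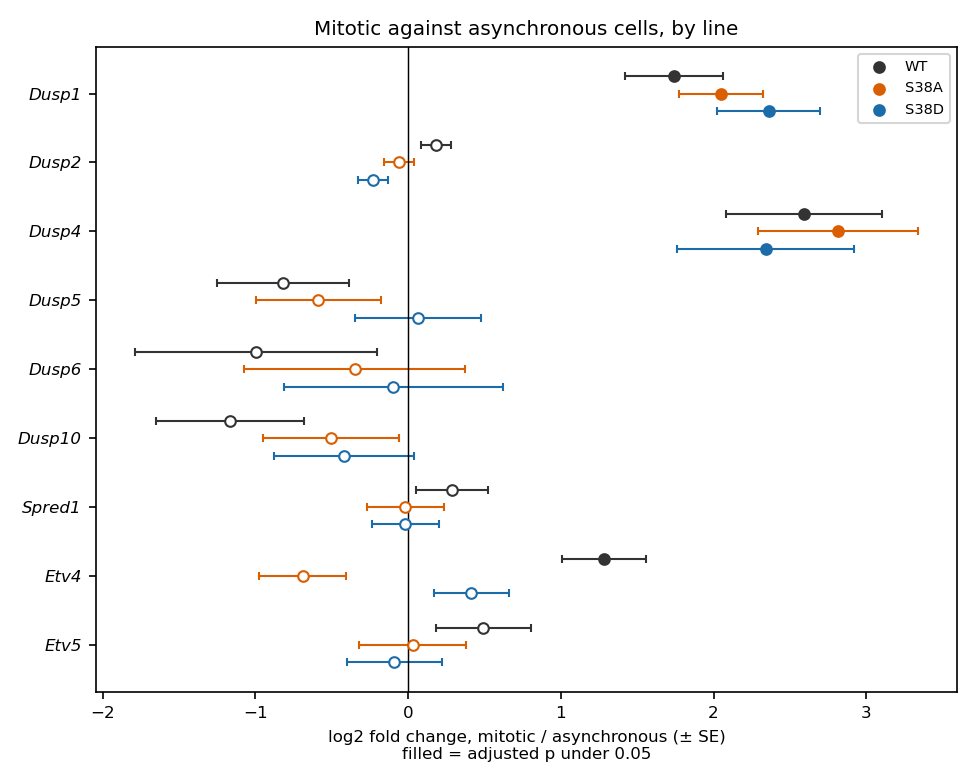
Log2 fold change of mitotic against asynchronous cells for the 9 tested members in WT (black), S38A (orange) and S38D (blue); bars are SE and filled points have an adjusted p under 0.05. Dusp1 and Dusp4 are filled in all 3 lines, and Etv4 runs from 1.28 in WT to -0.69 in S38A.

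Within single lines, 3 of 9 members were called in WT (Dusp1, Dusp4 and Etv4, all higher), where 26% of all tested genes were called and 13.4% were called higher. In S38A the count was 2 of 9 (Dusp1 and Dusp4) where 14.8% of all tested genes were called and 6.72% of all tested genes were called higher. In S38D it was again 2 of 9 (Dusp1 and Dusp4), where these shares were 26.4% and 11.6%. Dusp4 is in each of these counts and passed the filter only through the mitotic libraries, so the counts are descriptions. The median log2 fold change of the members was 0.29 in WT, -0.06 in S38A and -0.02 in S38D, against -0.02, 0.01 and -0.01 over all tested genes. With the joint omission S38D had 6 members called, where 28.3% of genes were. Added to Dusp1 and Dusp4 were Etv4 (0.82), Dusp2 (-0.28), Dusp6 (-0.77) and Dusp10 (-0.95). The S38D asynchronous library kept there was the higher of its pair for Dusp2, Dusp6 and Dusp10 and the lower for Etv4. For Dusp6 it was at 44.2 CPM and the omitted library at 11.6 CPM.

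Etv4 (chr11:101769742-101785310, minus strand, 13 exons) measured 7.63 and 10.5 CPM in WT asynchronous cells and 23.2 and 20.2 CPM in WT mitotic cells. S38A cells had 10.1 and 11.9 CPM when asynchronous and 5.24 and 8.33 CPM when mitotic. S38D cells had 19.7 and 12.0 CPM when asynchronous and 20.2 and 22.3 CPM when mitotic. By group mean, Etv4 was thus higher in mitotic than in asynchronous cells of WT and S38D, and lower in S38A. The log2 fold change was 1.28 in WT (SE 0.275, adjusted p = 0.00315), -0.69 in S38A (SE 0.284, adjusted p = 0.119), while S38D gave 0.41 (SE 0.248, adjusted p = 0.241). The WT call was lost without WT asynchronous replicate 1 (1.05, adjusted p = 0.0709) and stood at 1.22 (adjusted p = 0.00128) with the joint omission. The S38A value was called with that omission (-0.71, adjusted p = 0.0283), where 27.1% of genes were. It was also called without either S38D asynchronous library (adjusted p = 0.0392 and 0.0393), which the S38A contrast does not use but the pooled spread does, and without a low-count filter (adjusted p = 0.0495). The S38D value was called without S38D asynchronous replicate 1 (adjusted p = 0.0280).

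The difference between the mitotic changes was tested directly. For S38A minus WT, Etv4 was the one member of 9 called, at -1.97 (SE 0.395, 95% interval -2.81 to -1.14, adjusted p = 0.0289), where 0.993% of tested genes were called and 0.496% were called lower. This call was kept when 3 of the 12 libraries were left out in turn and lost with the other 9, at adjusted p from 0.0562 to 0.217, while the value stayed between -2.39 and -1.72. Without replicate 1 of S38D asynchronous and WT mitotic cells it was -1.93 (adjusted p = 0.0013), where 7.39% of genes were called. DESeq2 gave no adjusted p for it. For S38D minus WT edgeR called no member in the fit of all libraries, where 0.401% of genes were called. Etv4 stood there at -0.87 (adjusted p = 0.225). Its value was -1.22 without S38D asynchronous replicate 2 and -0.39 with the joint omission. Both of these fits left 1 S38D asynchronous library, and whether Etv4 was called depended on which one was left. Dusp2 and Etv4 had an unadjusted p under 0.05 in the edgeR fit of all libraries, and DESeq2, which gave an adjusted p for 2 of the 9, called 0. For S38D minus S38A no member was called by edgeR either, which called 0.0382% of genes. Etv4, the 1 member with an unadjusted p under 0.05, stood at 1.10 (adjusted p = 0.424), and DESeq2 gave an adjusted p for 1 of the 9 and called 0. These 3 differences share libraries. Under the joint omission the last reached 1.53 (adjusted p = 0.0251), where 1.46% of genes were called. For Dusp1 and Dusp4 no difference between lines in the mitotic change was called.

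The second question was how the lines differed from each other within a state. Dusp2 was higher in both mutant lines than in WT among asynchronous cells, Dusp1 and Dusp2 were lower in S38D than in S38A in both states, and Spred1 was higher. In mitotic cells S38A also had less Etv4, Etv5 and Spred1 than WT. The comparisons share libraries: those with WT use the same WT libraries, and S38D against S38A uses the libraries of both.

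**Figure D3:**
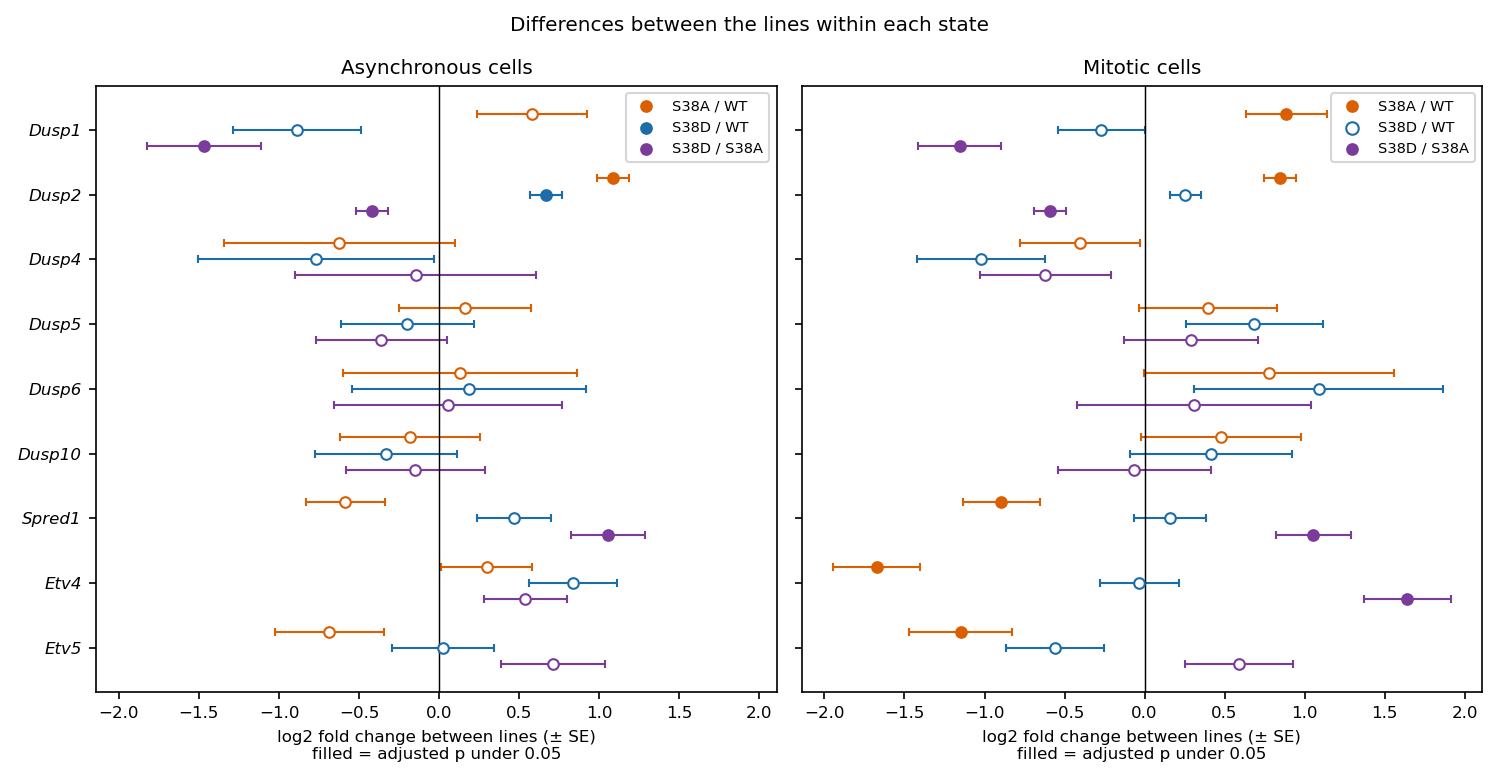
Log2 fold change between lines in asynchronous (left) and mitotic (right) cells for the 9 tested members: S38A against WT (orange), S38D against WT (blue) and S38D against S38A (purple); bars are SE and filled points have an adjusted p under 0.05. Dusp2 is filled in each comparison but S38D against WT in mitotic cells, and Spred1, Etv4 and Etv5 lie left of 0 for S38A against WT in mitotic cells.

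Dusp2 measured 737 and 789.9 CPM in WT asynchronous cells, 1678 and 1569 CPM in S38A and 1172 and 1255 CPM in S38D. In mitotic cells it measured 859.9 and 874 CPM in WT, 1619.7 and 1498 CPM in S38A and 1040.4 and 1029 CPM in S38D. By group mean, WT was lowest, S38D intermediate and S38A highest in both states. The group means ran from 763 ± 37.5 CPM (SD, n = 2) in WT asynchronous cells to 1624 ± 77.6 CPM (SD, n = 2) in S38A asynchronous cells. Neighbours in that order that did not pass the test were the 2 states of each line, and WT and S38D in mitotic cells. Asynchronous S38D and mitotic S38A cells, the remaining neighbours, were not compared.

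Against WT, Dusp2 was higher in S38A, with a log2 fold change of 1.09 (SE 0.099, adjusted p = 2.07e-06) in asynchronous and 0.85 (SE 0.099, adjusted p = 2.98e-05) in mitotic cells, a 2.13-fold and 1.80-fold difference. These 2 calls held with each library left out and with spike-in scaling (0.63, adjusted p = 0.0065, in asynchronous cells). With the joint omission the mitotic value was 0.82 (adjusted p = 4.24e-07). In S38D the log2 difference from WT was 0.67 (SE 0.099, adjusted p = 0.000524) in asynchronous cells and 0.26 (SE 0.098, adjusted p = 0.170) in mitotic cells. The mitotic one was called without either S38D asynchronous library (adjusted p = 0.0314 and 0.0372). The asynchronous one was not called with spike-in scaling (0.29, adjusted p = 0.190) or when only the 2 groups were fitted (0.64, adjusted p = 0.0886), and it was 0.73 (adjusted p = 2.56e-06) with the joint omission. The log2 difference of S38D from S38A was -0.42 (adjusted p = 0.0154) in asynchronous and -0.59 (adjusted p = 0.000723) in mitotic cells. The asynchronous difference was lost with spike-in scaling (-0.33, adjusted p = 0.270) and without either S38A asynchronous library (adjusted p = 0.136 and 0.0670), and was -0.39 (adjusted p = 0.00463) with the joint omission.

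In asynchronous cells Dusp2 was thus the one member of 9 called in S38A against WT, where 21.2% of tested genes were called and 11.7% were higher, and in S38D against WT, where the shares were 8.99% and 4.87%. With spike-in scaling Spred1 (-1.03, adjusted p = 0.0109) and Etv5 (-1.13, adjusted p = 0.0291) were called lower in S38A as well. That scaling lowered the median of all genes in S38A against WT by 0.45 in asynchronous cells. Relative to the other genes their values under the usual scaling were -0.59 (adjusted p = 0.103) and -0.69 (adjusted p = 0.166). Under the joint omission the Dusp6 difference of S38D was 0.87 from WT and 0.70 from S38A. That fit kept the S38D asynchronous library at 44.2 CPM and left out the one at 11.6 CPM. The WT libraries were at 23.9 and 24.9 CPM and the S38A libraries at 31.0 and 22.2 CPM. By these levels the direction depended on which S38D library was kept.

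Dusp1 differed between the mutant lines in both states. From the levels given above, the group mean was lower in S38D than in S38A in asynchronous and in mitotic cells. The log2 difference of S38D from S38A was -1.47 (SE 0.356, adjusted p = 0.0186) in asynchronous and -1.16 (SE 0.259, adjusted p = 0.00581) in mitotic cells. The asynchronous call was lost without either S38A asynchronous library or S38D asynchronous replicate 2 (adjusted p = 0.0646 to 0.144), and the mitotic one without S38D mitotic replicate 1 (adjusted p = 0.0737). With the joint omission the asynchronous value was -1.75 (adjusted p = 0.00366). Against WT, mitotic S38A cells had more Dusp1 by 0.89 (SE 0.256, adjusted p = 0.0253). That value was 0.50 (adjusted p = 0.297) without WT mitotic replicate 1, which was the lower of the WT pair, and the call was lost with the joint omission (adjusted p = 0.136). It was also lost without either S38A mitotic library, with spike-in scaling (adjusted p = 0.0587) and with DESeq2 (adjusted p = 0.162).

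Spred1 measured 11.9 and 8.79 CPM in WT asynchronous cells, 7.72 and 6.21 CPM in S38A and 13.2 and 15.9 CPM in S38D. Mitotic cells had 12.1 and 13.6 CPM in WT, 6.15 and 7.62 CPM in S38A and 13.8 and 14.9 CPM in S38D. In both states S38A had the lowest group mean. S38D was higher than S38A by 1.06 in asynchronous (SE 0.232, adjusted p = 0.0107) and by 1.06 in mitotic cells (SE 0.237, adjusted p = 0.00598), a 2.08-fold difference in each. S38A was lower than WT in mitotic cells, with a log2 difference of -0.89 (SE 0.241, adjusted p = 0.0176). These calls were lost without 1 or another library: the first without either S38A asynchronous library (adjusted p = 0.0580 and 0.137), the second without S38A mitotic replicate 1 or S38D mitotic replicate 2 (adjusted p = 0.0731 and 0.0626). The third was lost without WT mitotic replicate 2 or either S38A mitotic library (adjusted p = 0.0510 to 0.143). DESeq2 called only the second of them. Under the joint omission the first was 1.16 (adjusted p = 0.00226) and the third -0.998 (adjusted p = 0.0137).

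Etv4 and Etv5 were lower in S38A than in WT among mitotic cells. For Etv4 the difference was -1.67 (SE 0.274, adjusted p = 0.000574), a 3.19-fold lower level, and S38D exceeded S38A by 1.64 (SE 0.273, adjusted p = 0.000715). Both calls held with each library left out, and the first was -1.59 (adjusted p = 8.17e-05) with the joint omission. In asynchronous cells no difference between lines was called for Etv4 in the fit of all libraries. The highest of the 6 asynchronous libraries was S38D replicate 1, one of the pair that stood apart. The difference of S38D from WT was 0.84 in the fit of all libraries. It was 1.19 without S38D replicate 2 and 0.45 with the joint omission. Each of these fits left 1 S38D asynchronous library, and whether the difference was called depended on which one was left.

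Etv5 measured 4.30 and 4.82 CPM in WT asynchronous cells, 2.52 and 3.10 CPM in S38A and 4.62 and 4.60 CPM in S38D. In mitotic cells it measured 6.80 and 5.92 CPM in WT, 2.35 and 3.37 CPM in S38A and 3.71 and 4.89 CPM in S38D. S38A had the lowest group mean in each state, and Etv5 had 13 to 36 reads per library over the data set. The mitotic difference between S38A and WT was -1.15 (SE 0.320, adjusted p = 0.0211), and it was lost without any 1 of the 4 libraries compared (adjusted p = 0.0507 to 0.172), with the joint omission (-1.06, adjusted p = 0.0747) and with DESeq2 (adjusted p = 0.232).

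In mitotic cells 5 of 9 members were thus called in S38A against WT (Dusp1 and Dusp2 higher, Spred1, Etv4 and Etv5 lower), where 17% of tested genes were called, 8.31% higher and 8.72% lower. DESeq2 called 2 of these, Dusp2 and Etv4. With the joint omission 3 were called (Dusp2, Spred1 and Etv4), where 18.9% of genes were. In S38D against WT none was called by edgeR or DESeq2, where edgeR called 4.56% of genes. Dusp2 and Dusp4 were the members with an unadjusted p under 0.05 there. In S38D against S38A 4 of 9 were called in mitotic cells (Spred1 and Etv4 higher, Dusp1 and Dusp2 lower), where 17.7% of genes were (7.51% higher, 10.2% lower). In asynchronous cells it was 3 of 9 (Spred1 higher, Dusp1 and Dusp2 lower), where 7.22% of genes were (3.32% higher, 3.89% lower). With these members picked by name, the shares are descriptions. The summed T and NK cell list, nearly all of it Klrb1c, was at 5.14 to 7.42 CPM in the S38A libraries and 1.97 to 4.62 CPM in the others. Klrb1c was called higher in S38A than in WT among asynchronous cells (1.24, adjusted p = 0.0251) and in no other comparison between lines (adjusted p = 0.0550 to 0.818). Its part in these results was not tested. Cd3e, Cd3g, Cd4 and Cd8a were at 0 in all libraries and Cd3d had 3 reads in all.

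Across the 6 group means of log2(CPM + 0.5), the members were compared by Pearson r. Dusp1 and Dusp4 were nearest to each other (r = 0.888), which adds nothing to the Dusp1 result since Dusp4 passed the filter only through its mitotic libraries. Dusp5 and Dusp6 were nearest to each other too (r = 0.906), with Dusp10 nearest to Dusp5 (r = 0.880). Spred1 and Etv5 were nearest to each other (r = 0.820) and Etv4 was nearest to Spred1 (r = 0.818). Dusp2 was like none of them, with a highest r of 0.352 to Dusp6 and an r of -0.840 to Etv5. These are descriptions over 6 points that share libraries and scaling, and the Dusp5, Dusp6 and Dusp10 means rest on the pairs that stood apart.

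The rest of the pathway was read from lists that, like the members, were chosen with earlier results of these data known. Their counts and medians are therefore descriptions. They are given for the comparison of the states over the lines. Of all tested genes 20.5% were called higher there and 21.6% lower, and with spike-in scaling 9.88% higher and 31.9% lower. Among the other dual-specificity phosphatase genes, 11 of 14 were tested, 6 were higher and 1 lower, with a median of 0.29. Dusp12 was higher by 1.05, Dusp3 by 0.63 and Dusp14 by 0.45, the last lost with spike-in scaling (0.27, adjusted p = 0.118), and Dusp11 was the lower one (-0.26). With that scaling the list had 3 higher and 2 lower.

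Of the RAS to ERK cascade genes all 27 were tested, 2 were higher and 8 lower, with a median of -0.26. The shares over all tested genes were 20.5% higher and 21.6% lower. The lower ones with the smallest adjusted p were Mapk3, which encodes ERK1 (-0.46), Rasa3, a GTPase-activating protein (-0.53), and Rasgrp2, an exchange factor (-0.56). The higher ones were Hras (0.40) and Rps6ka1, which encodes the ERK target kinase RSK1 (0.49). Hras lost its call with spike-in scaling (0.22, adjusted p = 0.0552), which gave 1 higher and 12 lower. Under the joint omission 2 were higher and 14 lower.

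Of the p38 and JNK cascade genes 15 of 18 were tested, 4 were higher and 5 lower, with a median of -0.10. Over all tested genes these shares were 20.5% and 21.6%. The lower ones were Map3k7, which encodes TAK1 (-0.62), Mapk9, which encodes JNK2 (-0.71), Map3k5 (-0.41), Map2k7 (-0.35) and Mapk11 (-0.47). The higher ones were Mapkapk3, a p38 target kinase (0.50), Map3k4 (0.45), Map2k3 (0.34) and Mapk14, which encodes p38 alpha (0.28). Spike-in scaling gave 1 higher and 7 lower: Map3k4, Map2k3 and Mapk14 lost their calls (adjusted p = 0.0601 to 0.509). Mapk14 was also lost with DESeq2 (adjusted p = 0.0566). Mapk11 was lost with DESeq2 (adjusted p = 0.211), with the replicate block (adjusted p = 0.0508) and with 8 of the 12 libraries left out in turn (adjusted p = 0.0556 to 0.197). Spike-in scaling moved the median of all genes by -0.18.

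Of the other ETS factor genes 13 of 14 were tested, 2 were higher and 5 lower, with a median of -0.14. Of all tested genes 42.1% were called in this comparison, 20.5% higher and 21.6% lower. The lower ones were Fli1 (-0.88), Ets1 (-0.65), Elf1 (-0.56), Elk3 (-0.52) and Elf4 (-0.46). The higher ones, Erf (0.19) and Gabpa (0.25), lost their calls with spike-in scaling, with DESeq2 and with 10 and 11 of the 12 libraries left out in turn, and Gabpa also with the replicate block (adjusted p = 0.0537) and the joint omission (adjusted p = 0.0720). Spike-in scaling gave 0 higher and 6 lower. Of the other ERK output genes 10 of 14 were tested, and all 10 were called, 9 higher and 1 lower, with a median of 1.54. Fos (6.44), Fosb (3.55) and Ier2 (1.76), all early response genes, had the smallest adjusted p, and Mcl1 (-0.65), a survival gene of the BCL2 family, was the lower one. Those 9 and 1 were the counts with spike-in scaling as well. Between lines in asynchronous cells the Fos SE was 0.692 to 0.750, near that of Dusp4 (0.722 to 0.753). Whether Fos, like Dusp4, passed the filter only through the mitotic libraries was not tested. The 9 tested feedback members had a median of 0.08. B cell markers were lower in mitotic cells in 7 of 8 genes, with a median of -0.65, where 21.6% of all tested genes were lower. Their part in these results was not tested.

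**Figure D4:**
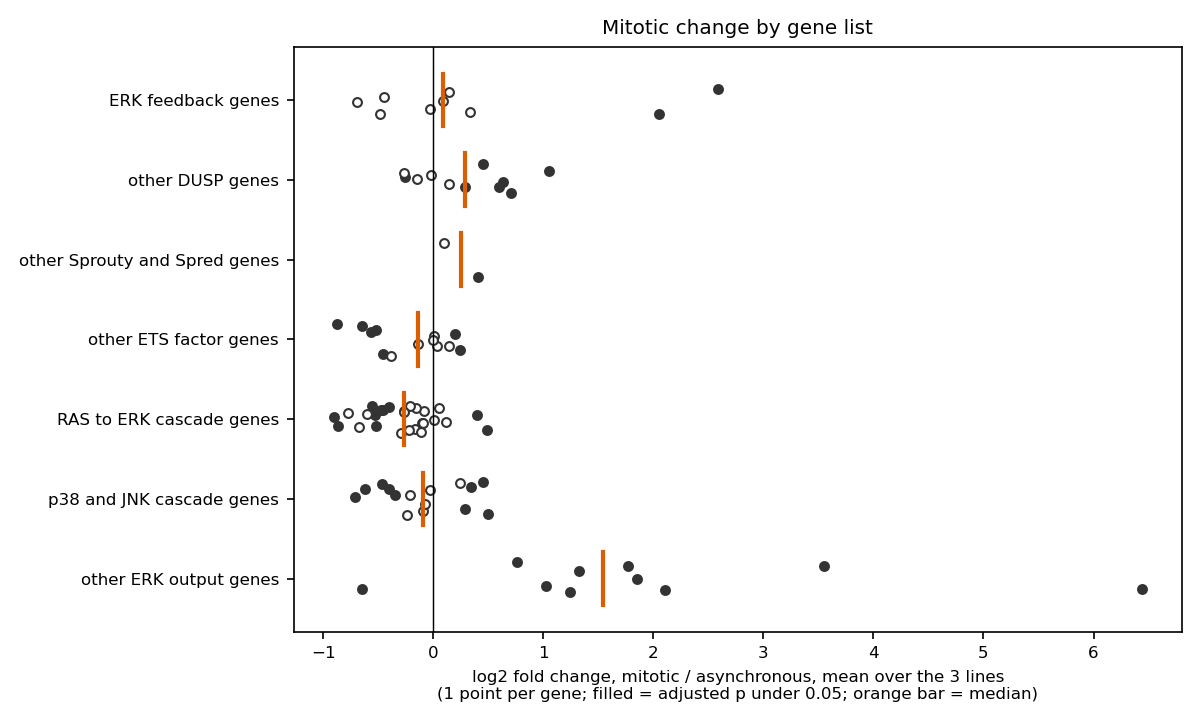
Log2 fold change of mitotic against asynchronous cells, mean over the 3 lines, for each tested gene of the 7 lists; filled points have an adjusted p under 0.05 and orange bars are list medians. The other ERK output genes lie to the right with a median of 1.54, while the ERK feedback genes centre at 0.08 with Dusp1 and Dusp4 apart.

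Of the 5 other Sprouty and Spred genes, Spry2 and Spred2 were tested, and both were called in S38A against WT and in S38D against S38A among asynchronous cells, where 21.2% and 7.22% of all tested genes were. Spry2 was lower in S38A than in WT, with log2 differences of -1.24 in asynchronous (adjusted p = 0.00617) and -1.15 in mitotic cells (adjusted p = 0.00802). S38D exceeded S38A by 2.11 (adjusted p = 0.000184) and 1.98 (adjusted p = 0.000132) in the 2 states. The 2 Spry2 calls of S38D against S38A held with each library left out, and each call of S38A against WT was lost without 2 of the 12 libraries (adjusted p = 0.0716 to 0.0984). Spry2 was also higher in asynchronous S38D than in WT cells (0.87, adjusted p = 0.0440), a call lost with 7 of the 12 libraries left out in turn, with DESeq2 and with spike-in scaling. Its rise over the lines in mitotic cells was 0.41 (adjusted p = 0.0441), lost with 7 of the 12 libraries left out in turn (adjusted p = 0.0510 to 0.142), with DESeq2 (adjusted p = 0.105) and with spike-in scaling (0.23, adjusted p = 0.341). Spred2 was lower in S38A than in WT (-2.01, adjusted p = 0.0270) and higher in S38D than in S38A (2.11, adjusted p = 0.0348) in asynchronous cells. DESeq2 made neither Spred2 call (adjusted p = 0.104 and 0.185). The first was lost without either WT asynchronous library or S38A asynchronous replicate 2, and the second with 6 of the 12 libraries left out in turn. Their values ran from -4.07 to -1.20 and from 1.33 to 4.19 over these omissions. The second was also lost with spike-in scaling (adjusted p = 0.0551) and when only the groups compared were fitted (adjusted p = 0.222). In mitotic cells Spred2 was not called in S38A against WT (-1.12, adjusted p = 0.201) or in S38D against S38A (1.19, adjusted p = 0.158).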

How the data were processed

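RNA of 12 libraries was counted per gene. The deposited files hold counts, raw reads per gene for 51826 genes, plus 92 spike-in sequences, in 1 file per library and without normalization. Per the labels' protocols, total RNA with ERCC spike-ins entered QuantSeq 3′ forward libraries. Per the submitters' processing notes, bcl2fastq 2.16.0.10, cutadapt 1.12 and STAR 2.5.3a were used with the genome build mm10. Not given in the sources used here are the read counter, its strand setting and the annotation. Gene symbols came from GENCODE M21, which matched 51633 identifiers (99.628%).

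Genes were filtered with filterByExpr at a minimum count of 10, leaving 10477, scaled with TMM and fitted in edgeR 4.0.16 (R 4.3.3, limma 3.58.1) with a mean per group over all 12 libraries (6 residual degrees of freedom, biological coefficient of variation 0.143). Robust quasi-likelihood F tests gave p-values, with Benjamini-Hochberg adjustment across the tested genes within each of 13 comparisons and calls under 0.05. The SE is derived from the F statistic, and 95% intervals use each gene's residual plus prior degrees of freedom. The fit was tested on simulated data. CPM are TMM-scaled. Depth was 3432875 to 6587997 gene reads per library, and spike-ins were 2.29% to 3.60% of that.

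The members and gene lists were chosen with earlier results of these data known. All members were named, with the 3 genes of each further list that had the smallest adjusted p over the lines, and the called genes of a list where 5 or fewer were higher or lower over the lines. The alternatives were DESeq2 1.42.0, DESeq2 size factors in edgeR, spike-in scaling, no low-count filter, a mean of at least 10 CPM, a fit restricted to the groups in question, a replicate block, each library left out, and S38D asynchronous and WT mitotic replicate 1 left out together. Promoter and 3′ sequences were read from RefSeq windows (GRCm38.p6) and GRCm38.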

Additional observations from a re-analysis of the deposited data

Results flagged for a closer look

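The change of Etv4 between asynchronous and mitotic cells differed between the S38A and WT lines in a direct test of the difference, at -1.97 on the log2 scale (edgeR, adjusted p = 0.0289). In WT the levels were 20.2 and 23.2 CPM in mitotic against 7.63 and 10.5 CPM in asynchronous cells. In S38A they were 5.24 and 8.33 CPM in mitotic against 10.1 and 11.9 CPM in asynchronous cells. The call was lost with 9 of the 12 libraries left out in turn (adjusted p = 0.0562 to 0.217), and DESeq2 gave no adjusted p for it.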

How the results depend on the processing

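Of 79 results on single genes, 1368 of the values under the alternatives kept their direction and side of the threshold, 128 lost the call, 27 gained one and 2 turned in sign. Both of the last came with spike-in scaling and were not called: Spred1 (-0.089) and Etv5 (-0.032) over the lines. Spike-in scaling moved the median of all genes by -0.43 in the mitotic comparison in WT and by -0.45 (S38A) and -0.38 (S38D) against WT in asynchronous cells. The count of members called over the lines, 2, was 1 with genes of at least 10 CPM, of which 6 members were tested, 6 without both libraries that stood apart, and 2 to 5 with each library left out. In WT it was 3, then 5 when only the groups compared were fitted and 2 to 6 with each library left out. In S38A the 2 calls became 1 with genes of at least 10 CPM and 1 with DESeq2, and 2 to 3 with each library left out. In S38D the 2 calls became 1 with genes of at least 10 CPM, 1 with DESeq2, 6 without both libraries, and 1 to 4 with each left out. DESeq2 set no adjusted p for 27 pairs of member and comparison, 6 of them Dusp4, and 3 of the 27 were called by edgeR. For S38A against WT the asynchronous count of 1 was 3 with spike-in scaling, and the mitotic count of 5 was 2 with DESeq2, 3 when only the groups compared were fitted, 3 without both libraries and 2 to 5 with each left out. For S38D against WT the asynchronous count of 1 was 0 with spike-in scaling, 2 without a filter, 0 with only the groups compared, 2 without both libraries and 1 to 2 with each left out, and the mitotic count of 0 was 0 to 1. For S38D against S38A the asynchronous count of 3 was 0 with only the groups compared and 0 to 4 with each left out, and the mitotic count of 4 was 3 to 4. For the differences in mitotic change, S38A minus WT had 1, which was 0 with DESeq2 (1 member had an adjusted p) and 0 to 1 with each left out. S38D minus WT had 0, which was 0 to 3, and S38D minus S38A had 0, which was 1 without both libraries and 0 to 0 with each left out. The cause was not tested. The replicate numbers did not pair the libraries of all groups: correlations of deviations between same-numbered libraries ran from -0.400 to 0.786 over 7062 genes. S38D asynchronous cells gave 0.786 with WT mitotic and 0.591 with S38A mitotic cells. WT mitotic with S38A mitotic cells gave 0.549, so some groups shared a replicate difference. S38A asynchronous cells had negative values with each of these groups (-0.363, -0.365 and -0.400). With the replicate block the count over the lines was 3, the added member being Dusp10 (-0.72, adjusted p = 0.0260), and no other member's call changed. Depth limits Dusp4, Etv5 and Spry1 most.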
